A study of Mus musculus with 2 samples.

Results

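Endothelial cells, the lining of blood vessels, were followed in Drop-seq data from the base of the mouse hypothalamus. They were chosen by their own RNA, as the cells with a UMI (unique molecular identifier, 1 counted transcript copy) of at least 3 of 10 endothelial genes: Cldn5, Flt1, Slco1a4, Itm2a, Ly6c1, Pecam1, Esam, Egfl7, Abcb1a and Cdh5. After barcodes under 300 genes or over 20% mitochondrial UMIs were dropped, 51 of 3889 cells met this rule, and they are called members here. The members were 39 of 2405 wild type cells and 12 of 1484 cells of Irx3/5 double heterozygotes.

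The tissue was dissected arcuate nucleus with the median eminence, and live cells were sorted before droplets paired each with a barcoded bead, which primes from the 3' end of transcripts. Wild type tissue came from a pool of 7 mice and Irx3/5 double heterozygote tissue (labelled Irx3/5+/-) from a pool of 5, in each case CD-1 mice aged 7 to 8 weeks. No source used here describes the mutant alleles. Irx3 and Irx5 encode Iroquois transcription factors.

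Brain capillary endothelium forms the blood-brain barrier: cells joined by tight junctions carry glucose, amino acids and thyroid hormone across by dedicated transporters and pump many lipophilic compounds back to the blood. The median eminence is one of the few brain sites where capillaries are instead fenestrated, with pores spanned by diaphragms of the Plvap protein, so that hypothalamic releasing hormones can enter the portal blood. VEGF signalling is known to keep fenestrated capillaries in that state, and Wnt/beta-catenin signalling to induce the barrier.

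Deposited UMIs totalled 4426817 over 2800 wild type barcodes and 2974060 over 1800 double heterozygote barcodes. Members were shallow, with a median of 702 UMIs (398 to 5240) for wild type members and 722.5 (395 to 3616) for double heterozygote members, against 1292 and 1170 in the other cells. They held 36246 and 10801 UMIs in sum, so that 1 UMI was worth 27.6 and 92.6 CPM (UMIs scaled to a total of 1e6). The deepest member held 14.5% of the wild type sum and 33.5% of the double heterozygote sum. The median mitochondrial share of members was 2.83% and 2.58%, against 1.67% and 1.61% in other cells. The libraries shared 3 barcodes, none of a member. Each genotype was 1 pool and cells are not replicates, so no p-values are given, and every interval is at 95% and covers counting error only. Pairs of values give wild type first.

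Cells on either side of the threshold differed in depth and in markers of other cell types. Their marker UMIs are given as a description only, since these chose the cells. The 5 cells with exactly 3 markers had a median of 570 UMIs and 4 marker UMIs, which made up 0.702% of their UMIs, and none had 3 markers of another cell type. The 27 cells with exactly 2 markers, left out, had a median of 5442 UMIs and 2 marker UMIs, or 0.0375% of their UMIs. Of these, 26 had at least 3 markers of another cell type, 21 had at least 3 neuron markers and 11 had a Plvap UMI. The cells just outside were thus mostly deep cells of other kinds, as the plot of marker number against depth shows.

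**Figure D1:**
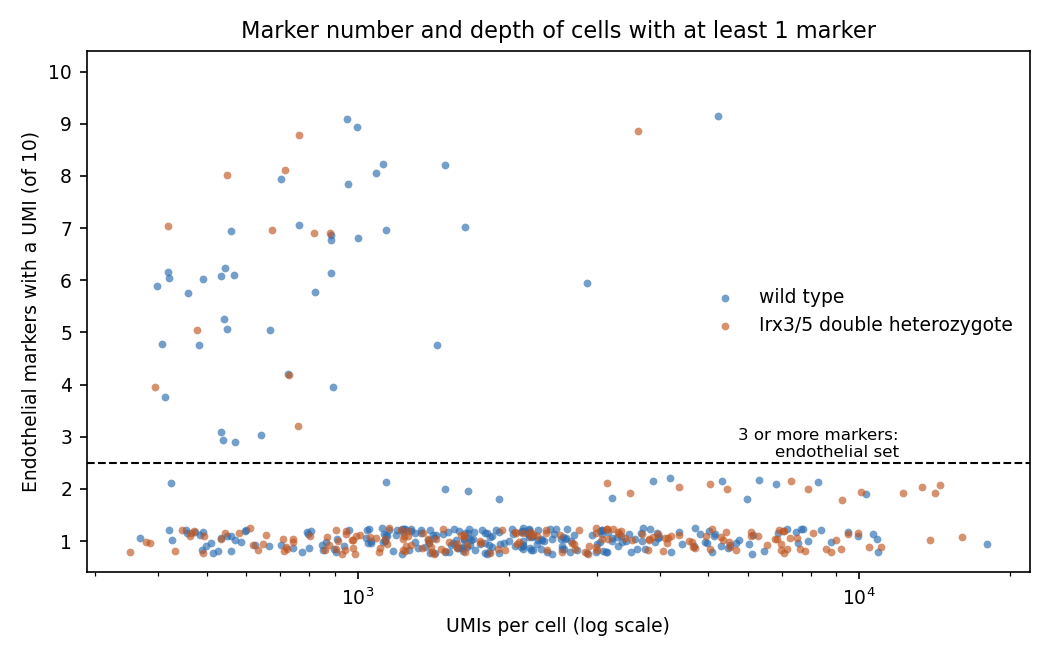
Number of the 10 endothelial markers with a UMI (y axis) against UMIs per cell (x axis, log scale) for each cell with at least 1 marker. Points are cells, shifted slightly up or down to separate them, and the dashed line is the threshold; the 27 cells with 2 markers lie mostly far to the right of the 51 members above the line.

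Members carried little RNA of neighbouring vascular cells. Of the 10 mural cell markers 9 were at 0, and the list summed to 2 and 0 UMIs; that of fibroblasts summed to 8 and 0 UMIs with 8 of 10 genes at 0. The neuron list, with 6 of 10 genes at 0, summed to 20 and 2 UMIs, or 552 and 185 CPM against 5642 and 7615 CPM in other cells. Macrophage markers summed to 51 and 0 UMIs, of which 49 lay in 1 wild type member with 8 macrophage and 7 endothelial markers. Haemoglobin and other erythrocyte genes summed to 487 and 0 UMIs, of which 484 lay in the deepest wild type member, with 237 UMIs of Hbb-bs and 220 of Hba-a1. The ependymal list was higher in members, at 4938 and 2685 CPM against 1698 and 1285, and 142 of its UMIs were of Pltp, a phospholipid transfer protein gene that stood also on the list of vasoactive signalling. The lists of oligodendrocytes (31 and 4 UMIs), their precursors (1 and 0), tanycytes (5 and 3), astrocytes (11 and 3) and the pars tuberalis (4 and 1) each had a lower CPM in members than in other cells. Results without the macrophage-marked cell or without the deepest cell were computed as alternatives.

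Endothelial members made up 1.62% (1.16 to 2.21) of the wild type library. In the double heterozygote library they made up 0.809% (0.419 to 1.41). Among cells not classed as neurons, which were more frequent in the double heterozygote library (644 of 1484 cells against 715 of 2405), the shares were 2.31% (1.65 to 3.14) and 1.43% (0.7403 to 2.48). The intervals overlapped in both cases. A share of captured cells depends on dissociation and sorting, and whether vessels were fewer or fewer of their cells were captured cannot be told apart.

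The 10 genes that chose the members are given as a description only. Cldn5, the main claudin of brain endothelial tight junctions, had 192 and 44 UMIs in 31 and 10 cells, and 5297 and 4074 CPM against 2.36 and 0 CPM in other cells. Flt1, the VEGF receptor that also acts as a decoy, had 100 and 62 UMIs in 32 and 10 cells. Ly6c1, a membrane protein of small vessels, had 239 and 45 UMIs in 36 and 10 cells, and Itm2a, a membrane protein enriched in brain vessels, 128 and 34 UMIs in 32 and 9 cells. Of the transport genes, Abcb1a, the P-glycoprotein efflux pump, had 56 and 10 UMIs, and Slco1a4, an organic anion carrier, 40 and 5 UMIs. Egfl7, a secreted factor of endothelium, had 45 and 18 UMIs. The adhesion genes had 34 and 11 UMIs of Esam, 23 and 7 UMIs of Pecam1 and 10 and 9 UMIs of Cdh5, the endothelial cadherin. No marker was found in every member, and 5 members held 9 of the 10.

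Promoters of members' genes are shown because these genes are read together in 1 cell type, and because ETS factors such as Erg and Fli1, which endothelial cells are known to use, bind sequences with a GGAA core. The motifs AGGAAG and CGGAAG were searched on both strands in the 250 bases before each start (RefSeq, GRCm38.p6); the motifs cannot overlap at the same GGAA. The 4 chosen stand for a gene found in most members (Flt1), for the barrier (Cldn5, Slco1c1) and for VEGF signalling (Kdr), and capitals mark a match (CTTCCT is AGGAAG on the other strand).
Flt1, chr5:147726012-147726261, minus strand: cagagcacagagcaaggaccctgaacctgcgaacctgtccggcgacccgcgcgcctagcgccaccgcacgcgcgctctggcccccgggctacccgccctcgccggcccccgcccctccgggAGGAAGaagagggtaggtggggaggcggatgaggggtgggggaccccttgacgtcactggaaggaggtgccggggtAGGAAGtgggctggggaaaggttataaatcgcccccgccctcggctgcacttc
Cldn5, chr16:18776597-18776846, plus strand: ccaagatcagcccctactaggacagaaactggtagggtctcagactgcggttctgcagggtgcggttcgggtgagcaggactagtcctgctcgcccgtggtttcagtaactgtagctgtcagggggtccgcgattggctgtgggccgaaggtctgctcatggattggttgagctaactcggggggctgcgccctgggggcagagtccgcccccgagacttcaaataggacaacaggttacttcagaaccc
Slco1c1, chr6:141524104-141524353, plus strand: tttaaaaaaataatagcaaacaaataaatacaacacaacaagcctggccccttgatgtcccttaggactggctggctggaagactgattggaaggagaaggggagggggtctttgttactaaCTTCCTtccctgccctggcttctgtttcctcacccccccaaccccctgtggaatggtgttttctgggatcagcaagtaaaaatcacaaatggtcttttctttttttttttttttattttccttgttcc
Kdr, chr5:75978456-75978705, minus strand: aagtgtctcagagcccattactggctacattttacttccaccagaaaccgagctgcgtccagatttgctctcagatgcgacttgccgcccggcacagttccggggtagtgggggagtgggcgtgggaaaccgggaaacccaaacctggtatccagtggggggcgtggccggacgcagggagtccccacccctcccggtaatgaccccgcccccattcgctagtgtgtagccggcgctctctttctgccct
The Flt1 promoter held 2 matches, that of Slco1c1 held 1, and those of Cldn5 and Kdr held none. Either motif stood before 6 of the 7 rule markers for which a promoter was given, all as AGGAAG. Of the 25 genes named below that are not rule markers, 18 had a promoter, and 12 of these (66.7%) had either motif. Of all 27025 genes with a promoter, 42.5% had either motif, and of the 682 genes with a promoter and at least 10 UMIs in members 52.8%. A gene counted if any of its promoters matched. By promoter, 7 of 10 of the rule markers matched, 54.2% of the named genes and 47.3% of genes with at least 10 UMIs. A match is a description of letters, not a binding site.

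Many genes beyond the rule markers were read at far higher levels in members. In all, 995 genes had at least 10 UMIs in the members, a filter that favours genes high there. Of these, rule markers included, 356 (35.8%) were over 2-fold higher in members than in other cells in both libraries and 17 (1.71%) were over 2-fold lower. Over all 995 genes, rule markers included, the median log2 ratio was 0.81. With members set against single vascular neighbours, 387 (38.9%) were over 2-fold higher and 38 (3.82%) lower than in 117 mural cells, and 398 (40%) were higher and 27 (2.71%) lower than in 267 fibroblasts. Ratios on the log2 scale have 0.5 UMI added to each sum.

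Of the 143 genes that met the rule for names, 25 are named. Transcription factors were the first group. Sox17 (minus strand of chr1:4490931-4497354 in GRCm38), a SOX factor of arterial and barrier endothelium, had 21 and 3 UMIs in 11 and 3 cells and none in any other cell. It was at least 820.1-fold higher in wild type, against a floor of 3 UMIs in that library. Erg, an ETS factor that maintains endothelial identity, had 23 and 3 UMIs, or 635 and 278 CPM against 0.236 and 0.701 CPM. Fli1, a related factor outside the named genes, had 7 and 2 UMIs.

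Receptors and regulators of VEGF and angiopoietin signalling were the second group. Kdr (VEGFR2, minus strand of chr5:75932827-75978458), the main signalling receptor for VEGF, had 16 and 27 UMIs in 9 and 7 cells, and was 187-fold and 713-fold higher than in other cells of the same library. Tek, the angiopoietin receptor, had 18 and 3 UMIs, and Ptprb, the phosphatase that dampens it, 36 and 16 UMIs, 843-fold and 2112-fold higher. The TGF-beta and BMP receptors Acvrl1 and Eng had 25 and 5 UMIs and 32 and 6 UMIs. Emcn, a sialomucin of capillaries and veins, had 30 and 17 UMIs in 16 and 8 cells and was 439-fold and 321-fold higher. Adgrf5 and Adgrl4, adhesion G protein-coupled receptors of endothelium, had 39 and 11 UMIs and 22 and 7 UMIs. Each of these genes had UMIs in the members of both libraries, and none was found in more than 1% of other cells.

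Surface and secreted proteins made up much of the rest. Ly6a had 122 and 13 UMIs, of which 43 lay in 1 cell, and its relative Ly6c2 had 27 and 3 UMIs. Ly6c2 is a near copy of Ly6c1, and no source used here says how reads of such copies were divided. Car4, a capillary carbonic anhydrase, had 42 and 6 UMIs, or 1159 and 556 CPM against 2.36 and 6.66 CPM. Podxl, a sialomucin of the luminal surface, had 26 and 5 UMIs, and Edn1, the vasoconstrictor endothelin-1, 16 and 4 UMIs, at 93.7-fold and 87.99-fold higher. Icam2, a ligand for leukocyte integrins, had 22 and 1 UMIs. Gkn3 (minus strand of chr6:87383256-87388935) tied with Sox17 for the highest ratio by the rule for names, with 40 and 3 UMIs, but 34 of its 43 UMIs lay in the deepest wild type member; without that cell its log2 ratio over both libraries went from 11.36 to 9.33. The other 8 named genes (Ushbp1, C130074G19Rik, Pglyrp1, Clic5, Ctla2a, Slco1c1, Plscr2 and BC028528) had between 25 and 85 UMIs. Levels of all 35 genes are plotted by library.

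**Figure D2:**
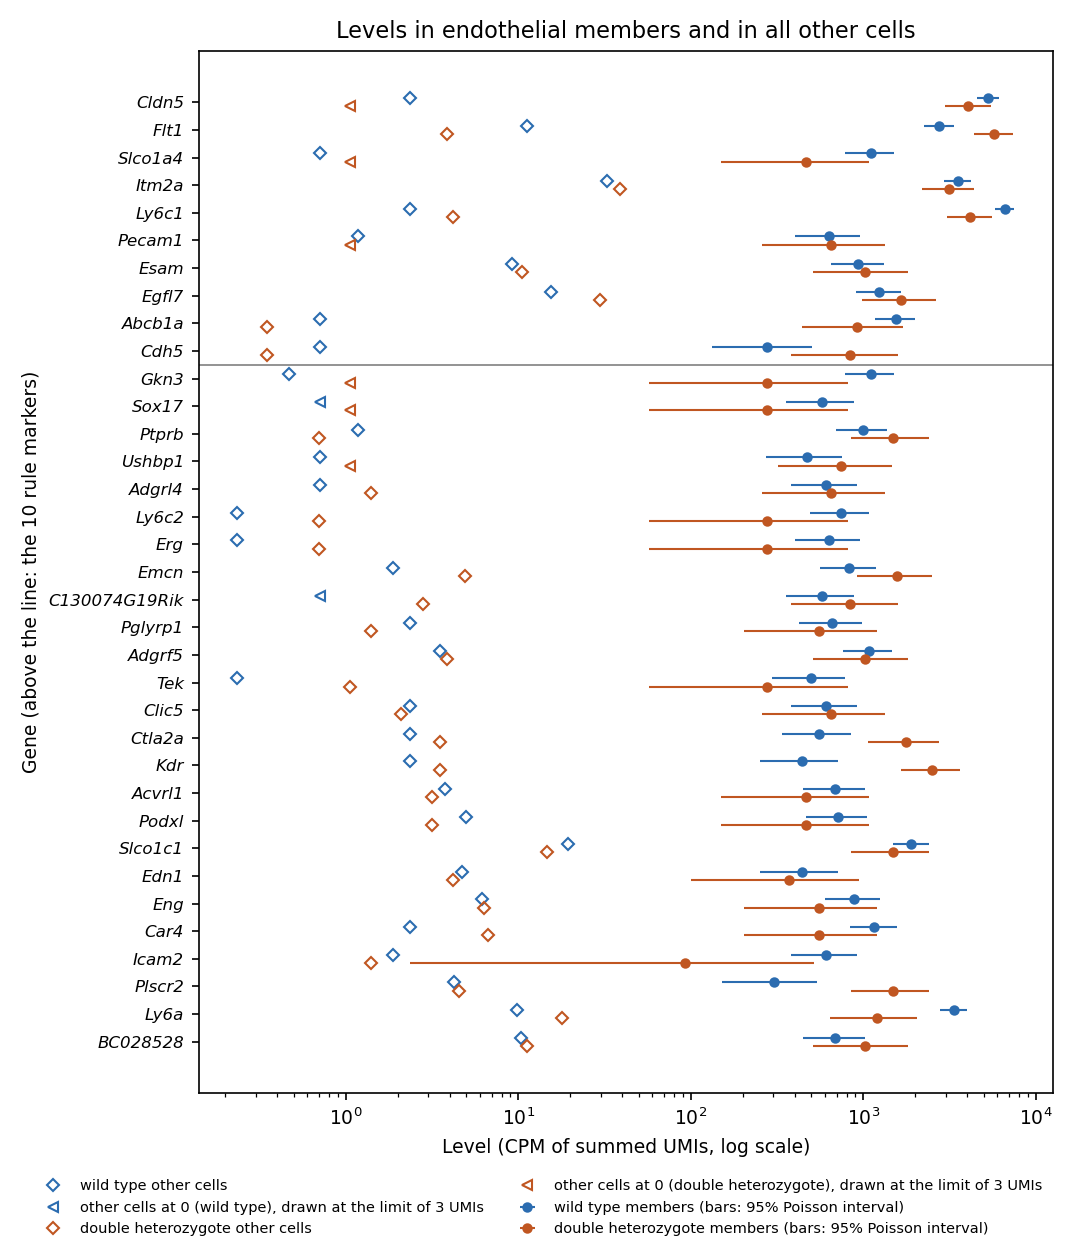
Level in members (filled circles with 95% Poisson intervals) and in all other cells (open diamonds) of each library, in CPM on a log scale, for the 10 rule markers (above the line) and the 25 named genes. Open triangles mark genes at 0 in other cells, drawn at the limit that 3 UMIs would give; each filled circle lies to the right of its open symbols.

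Functional lists showed how far this reached. The share of all 995 genes that were higher in both libraries was 35.8%, and each count below leaves out rule markers and genes under 10 UMIs. A gene can stand on more than 1 list, so the counts of different lists, here and in later comparisons, are not separate results. All 14 measured genes of the barrier transporter and efflux pump list were higher in members (median log2 ratio 4.23, against 0.78 over all genes without rule markers). Slco1c1 (plus strand of chr6:141524368-141570177), which carries thyroid hormone, had 69 and 16 UMIs in 24 and 7 cells and was 98.6-fold and 101-fold higher. Slc2a1, the glucose transporter GLUT1, had 42 and 2 UMIs and was 24.4-fold and 6.14-fold higher, and Slc6a6, the taurine transporter, had 54 and 9 UMIs and was 20.6-fold and 13.98-fold higher. Bsg, the basigin chaperone of monocarboxylate transporters, which stood on the leukocyte adhesion list, had 494 and 76 UMIs in 32 and 9 cells, or 13629 and 7036 CPM against 483 and 517 CPM.

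Of the junction list, 5 of 6 measured genes were higher (median 4.15), among them Lsr, the tricellular junction protein angulin-1, with 13 and 2 UMIs. Among Wnt and barrier induction genes all 4 measured were higher (median 5.88): Sox17, Ctnnb1, Foxq1 and Lef1, of which Lef1, a nuclear effector of Wnt signalling, had 8 and 4 UMIs and was 29.3-fold and 40.6-fold higher. All 13 measured endothelial transcription factors were higher (median 5.38), such as the flow-responsive Klf2 with 36 and 10 UMIs (52.7-fold and 65.99-fold) and the hypoxia factor Epas1 with 35 and 9 UMIs (42.3-fold and 37.1-fold). Receptors of VEGF, angiopoietin, TGF-beta and Notch signalling had 14 of 15 higher, with a median of 7.03, above those of the other lists with at least 4 measured genes.

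Of 11 measured basement membrane and matrix genes, 10 were higher than in other cells (median 3.46). Set against the vascular neighbours, 4 were over 2-fold higher than in mural cells and 5 than in fibroblasts, shares near the 38.9% and 40% of all genes, while all 14 barrier transporter genes were higher than in either. Sparc, a matrix glycoprotein, had 168 and 124 UMIs and was 7.92-fold and 21.5-fold higher than in other cells, and Igfbp7, a vessel-associated binding protein, had 128 and 85 UMIs and was 13.7-fold and 26.03-fold higher. Of MHC class I and interferon response genes 9 of 10 were higher (median 3.06), with 107 and 38 UMIs of B2m, the light chain of class I molecules, and 60 and 25 UMIs of H2-D1, whose near copies can share reads. The vasoactive list had 8 of 9 higher (median 4.05), and the leukocyte adhesion list 5 of 6 (median 5.15), including Cd34 with 18 and 7 UMIs.

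Glycolysis and heat shock genes had list medians near 0, though single stress genes differed. None of 4 measured glycolysis genes was over 2-fold apart in both libraries (median -0.16). Of 7 heat shock genes 2 were higher and 1, Hsp90aa1, was lower at 0.363-fold and 0.321-fold the level of other cells (list median 0.08). The higher ones were Hspb1, a small heat shock protein, with 45 and 12 UMIs at 6.37-fold and 6.77-fold, and Hspa1a, an inducible chaperone with a near copy, at 2.45-fold and 5.27-fold. Of 15 immediate early genes 7 were higher, against 35.8% of all genes (median 1.30), among them Ier3 (23 and 17 UMIs). Klf2, Klf4 and Klf6 were also among the 7, and these were already counted with the endothelial transcription factors. Fos, induced by stimulation and by dissociation, had 33 and 64 UMIs at 0.509-fold and 5.64-fold the level of other cells. No cell cycle gene reached 10 UMIs, and 11 of 14 were at 0. The plot of lists shows the glycolysis, heat shock and immediate early lists at the bottom of the order, and leaves out the cell cycle list.

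**Figure D3:**
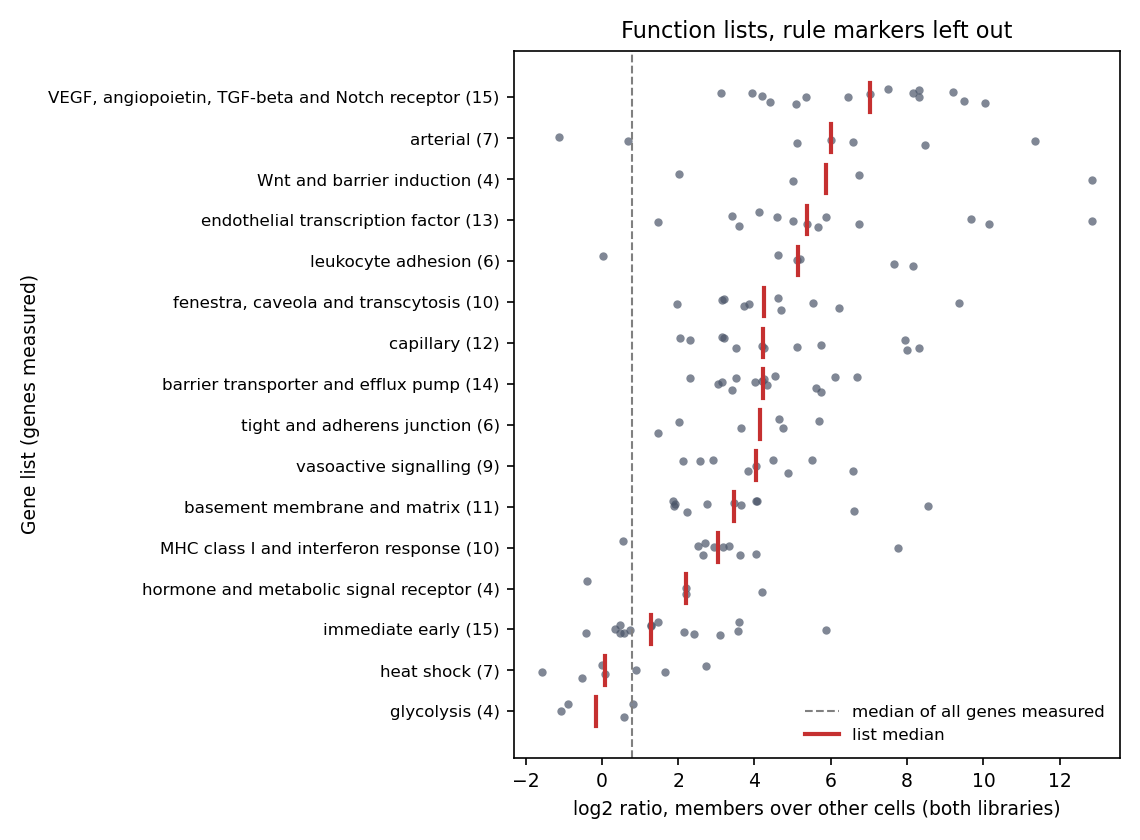
Log2 ratio of members over other cells (x axis, both libraries summed) for each measured gene of 16 function lists, rule markers left out, with the number of genes in brackets. Points are genes, red bars list medians and the dashed line the median of all genes measured; medians run from -0.16 for glycolysis to 7.03 for the VEGF, angiopoietin, TGF-beta and Notch receptor list.

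Receptors for circulating signals were sparse. Of 24 genes on that list 11 were at 0 and 4 reached 10 UMIs, of which 3 were higher (median 2.20). Calcrl, the receptor that with Ramp2 binds adrenomedullin, had 7 and 5 UMIs and was 12.1-fold and 38.8-fold higher, and Ramp2 itself had 36 and 10 UMIs (37.7-fold and 44.00-fold). Adipor1, an adiponectin receptor, had 15 and 7 UMIs, Igf1r 8 and 2 UMIs and Insr, the insulin receptor, 4 and 1 UMIs. Lepr, the leptin receptor, had 0 UMIs in members, which with 3 UMIs as the limit allows up to 82.8 and 278 CPM; other cells had 4.24 and 7.01 CPM. Lepr was therefore not detectable in members at this depth.

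Members were next divided by Plvap (minus strand of chr8:71497765-71511752), the gene of the fenestral diaphragm. A Plvap UMI was found in 6 of 39 wild type members (15.4%, 5.86 to 30.5) and 4 of 12 double heterozygote members (33.3%, 9.92 to 65.1), intervals that overlapped. The 10 cells held 1 to 9 Plvap UMIs each and had a median of 790.5 UMIs in all, against 674 in the 41 others. Of 402 oligodendrocytes, at a median of 1250 UMIs, 0.498% had a Plvap UMI, and of 1359 neurons, at a median of 1947 UMIs, 12.2%. Thinned to 500 UMIs per cell, 22.5% (10.8 to 38.5) of 40 members, 0.268% (0.00679 to 1.48) of 373 oligodendrocytes and 2.11% (1.40 to 3.06) of 1277 neurons had one, with 11 members, 29 oligodendrocytes and 82 neurons too shallow. The members' share was above both, and neurons, at a higher share than oligodendrocytes, give no reference free of the gene.

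This split was chosen after values had been seen, and the values below describe it. Of the 995 genes, 156 (15.7%) were over 2-fold higher in Plvap-positive members and 220 (22.1%) over 2-fold lower, with 12762 and 34285 UMIs behind the groups. Of the receptor list for VEGF, angiopoietin, TGF-beta and Notch signalling, 3 of 15 were higher and 3 lower (median 0.02), and of the capillary list 3 of 12 were higher and 7 lower, so neither list as a whole went with Plvap. Single genes went with Plvap, and those given next were picked out after their values were seen. Kdr was found in 9 of 10 against 7 of 41 cells and Nrp1, a VEGF co-receptor, likewise in 9 of 10 against 7 of 41 cells. Plpp3, a lipid phosphate phosphatase, was in 7 of 10 against 4 of 41 cells, Cd24a, a surface glycoprotein, in 8 of 10 against 3 of 41 cells, and Igfbp3, a binding protein for insulin-like growth factors, in 6 of 10 against 3 of 41 cells. Esm1, a proteoglycan induced by VEGF, was in 4 of 10 against 1 of 41 cells, with 17 against 2 UMIs, and Rgcc in 8 of 10 against 9 of 41 cells. Kdr and Nrp1 were each missing from 1 Plvap-positive cell and from 34 of the others.

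Barrier transporter genes were lower in Plvap-positive members. Of 14 measured, 10 were over 2-fold lower and none higher, against 22.1% lower and 15.7% higher of all genes. All 4 Wnt and barrier induction genes were lower, 3 of them without the deepest double heterozygote cell. Slco1c1 was in 0 of 10 against 31 of 41 cells (0 against 85 UMIs), Slc2a1 in 0 of 10 against 22 of 41 cells (0 against 44 UMIs), and Bsg in 2 of 10 against 39 of 41 cells (9 against 561 UMIs). A count of 0 in 10 cells allows a share of up to 30.8% (Clopper-Pearson). Car4 was in 1 of 10 against 19 of 41 cells. Rule markers are given as a description only, since their UMIs chose the cells: Slco1a4 was in 0 of 10 against 26 of 41 cells, Itm2a in 5 of 10 against 36 of 41 cells and Cldn5 in 4 of 10 against 37 of 41 cells.

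Of the fenestra, caveola and transcytosis list, 9 of 10 measured genes were higher in members than in other cells (median log2 ratio 4.25). Without Plvap, which defines the split, 5 of the remaining 9 were higher and 3 lower in Plvap-positive than in Plvap-negative members (median 1.22). Over all genes these shares were 15.7% and 22.1%. Other endothelial genes, rule markers among them, were found on both sides. Ly6c1 was in 10 of 10 against 36 of 41 cells, Flt1 in 8 of 10 against 34 of 41 cells, Egfl7 in 6 of 10 against 22 of 41 cells, Pecam1 in 6 of 10 against 15 of 41 cells and Sparc in 8 of 10 against 35 of 41 cells. Emcn lay between, in 8 of 10 against 16 of 41 cells. The heat map of single members shows the 2 blocks and the shared genes.

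**Figure D4:**
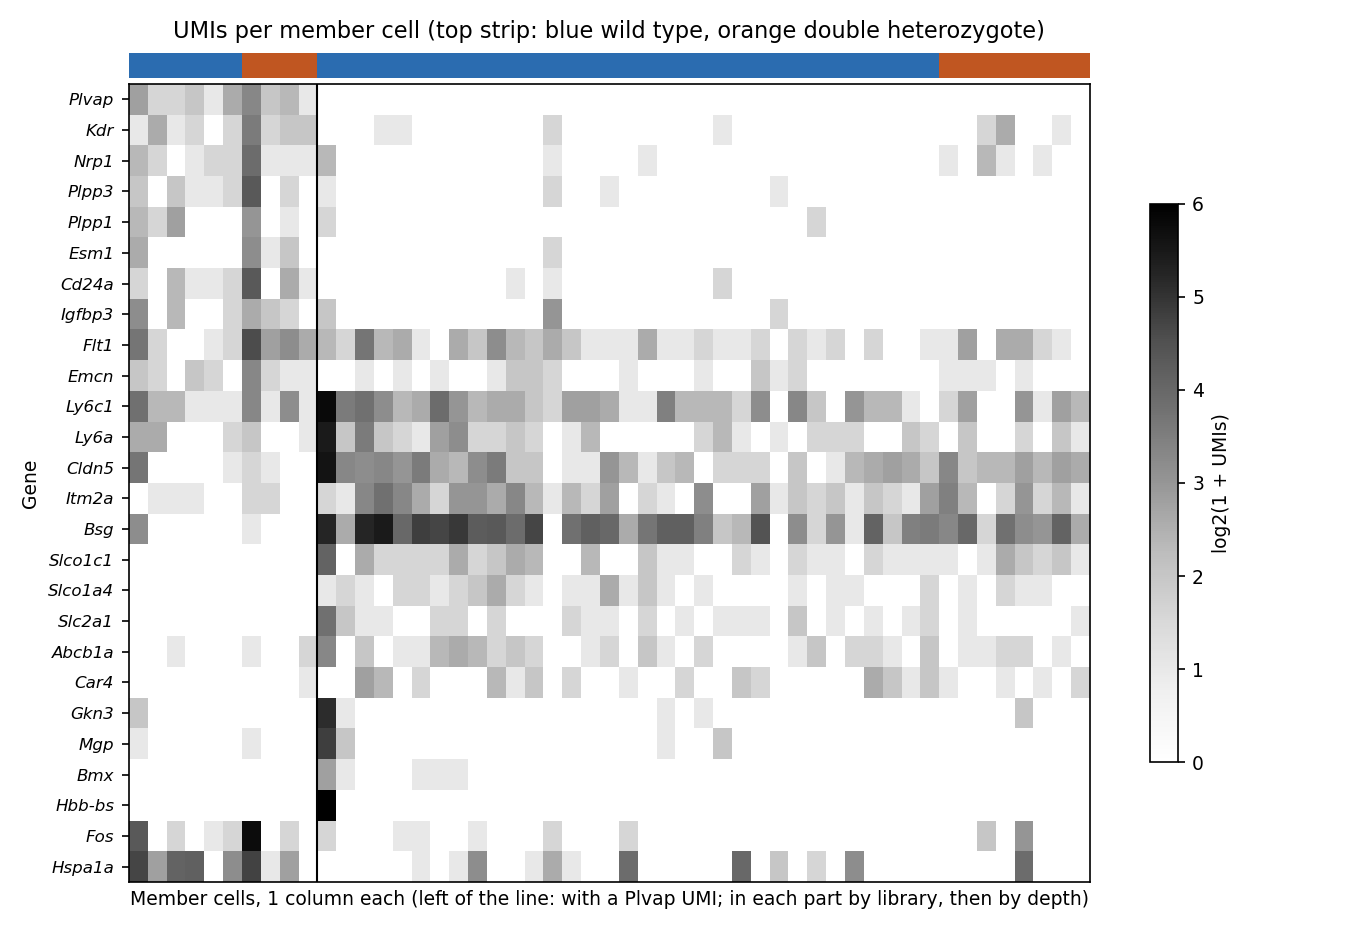
UMIs of 26 genes (rows) in each of the 51 members (columns), shaded by log2(1 + UMIs); the strip on top gives the library, and the line parts the 10 members with a Plvap UMI from the 41 without. Kdr and Nrp1 are each found in 9 of 10 cells on the left and 7 of 41 on the right, and Cd24a in 8 of 10 and 3 of 41. Bsg, Slco1c1, Slco1a4 and Slc2a1 lie almost wholly to the right.

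The rule bears on this split, since 3 of its 10 markers are barrier transporters or junction genes that Plvap-positive cells seldom held, and 3 of the 5 cells with exactly 3 markers held Plvap. With 10 endothelial genes that leave out the barrier genes as the rule, 45 cells were found, 44 of them members. The Plvap share was then 20.6% for wild type and 36.4% for double heterozygote cells. Those genes include the rule markers Flt1, Pecam1, Esam, Egfl7 and Cdh5, and also Kdr and Emcn, which were found more often with Plvap. The overlap and the share were thus partly set by the choice of genes. The deepest Plvap-positive cell was a double heterozygote cell of 3616 UMIs with 9 of Plvap. Without it the log2 ratio of Plvap-positive over Plvap-negative members was 3.09 for Plpp3, 3.78 for Cd24a and -4.14 for Bsg, against 3.94, 4.41 and -4.46 with it.

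Immediate early and heat shock genes also went with Plvap. Of 15 immediate early genes 10 were over 2-fold higher in Plvap-positive members and none lower, against 15.7% higher and 22.1% lower of all genes. Without the deepest Plvap-positive cell 10 were still higher, against 194 of all 995 genes. Fos was in 6 of 10 against 8 of 41 cells (78 against 19 UMIs), and its log2 ratio was 3.43 with that cell and 2.35 without it. Of 7 heat shock genes 4 were higher, against the same 15.7% of all genes. Hspa1a was in 8 of 10 against 12 of 41 cells (105 against 73 UMIs). The part of this difference in the other genes of the split was not tested.

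Arterial and venous UMIs were unevenly spread over members. At least 1 UMI of the arterial list was held by 36 of 51 members, of the capillary list by 49 and of the venous list without Plvap by 13, with 21, 15 and 16 genes counted. The arterial list holds Cxcl12, found in 23 members and also on the capillary list, and Stmn2, found in 12 and also a neuron marker. Its 36 members are therefore not a count of arterial cells. Of the arterial list 5 of 7 measured genes were higher in members than in other cells (median log2 ratio 6.01). Cells were then counted by 16 arterial and 16 venous genes of these lists, a selection made after the data were seen. Of the arterial genes, 28 members had none and 7 had at least 3, and 93 of their 174 UMIs lay in 1 cell, the deepest wild type member. That cell held 34 of 43 UMIs of Gkn3, 27 of 36 of Mgp, a calcification inhibitor of arteries, and 6 of 10 of Bmx, an arterial kinase, together with 47 UMIs of Cldn5 and the haemoglobin UMIs given above. Of the venous genes, 38 members had none and 7 genes were at 0, including Nr2f2, the venous fate factor, and Ackr1, a chemokine receptor of venules; 13 of the 27 venous UMIs lay in 1 cell. All 6 UMIs of Vcam1 and all 5 of Vwf each lay in a single wild type cell. All 12 measured capillary genes were higher than in other cells (median 4.23). Of these, Mfsd2a, Slc16a1, Slc7a5, Slc9a3r2, Spock2 and Tfrc were also counted with the barrier transporters.

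The comparison of genotypes within members rests on 1 pool each and on 12 double heterozygote cells. Irx3 had 2 and 0 UMIs in members and Irx5 had none in either library, against 6.83 and 5.26 CPM of Irx3 and 3.77 and 2.10 CPM of Irx5 in other cells, so the members' counts do not check the labels, and a 3' tag outside a deleted part would not do so at any depth. Of the 995 genes, 145 (14.6%) were over 2-fold higher in double heterozygote members and 194 (19.5%) over 2-fold lower. With a counting interval that leaves out 1 as well, 74 (7.44%) were higher and 31 (3.12%) lower, and the median log2 ratio of all genes was 0.02. In simulated Poisson counts with these depths and no spread between cells, such an interval was found for 92% of 50 genes set 4-fold higher. For 50 genes set 4-fold lower it was found for 28%, so low levels in the double heterozygote were hard to detect. These rates need not hold in the members, where the deepest double heterozygote cell held 33.5% of the UMIs of its library's members.

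Of the list of VEGF, angiopoietin, TGF-beta and Notch receptors, 3 of 15 were over 2-fold higher in the double heterozygote members and none lower (median -0.03). Over all genes 14.6% were higher and 19.5% lower. Without the deepest double heterozygote cell 2 were higher, against 158 of all 995 genes. The number of higher genes on the list was thus near that of all genes. The receptor Kdr and the co-receptor Nrp1 were among the genes named by ratio. Kdr had 16 and 27 UMIs, or 441 and 2499.8 CPM, a ratio of 5.66-fold (2.94 to 11.3), and was found in 9 of 39 and 7 of 12 cells. Nrp1 had 17 and 24 UMIs, a ratio of 4.74-fold (2.44 to 9.40), in 8 of 39 and 8 of 12 cells. Cd24a had 14 and 25 UMIs (5.99-fold, 2.997 to 12.5), but 19 of the 25 double heterozygote UMIs lay in the deepest cell. Col4a1, a chain of basement membrane collagen IV, had 9 and 14 UMIs (5.22-fold, 2.10 to 13.7), and Ctla2a, a protease inhibitor homologue, 20 and 19 UMIs (3.19-fold, 1.61 to 6.29). Plscr2, a phospholipid scramblase, had 11 and 16 UMIs (4.88-fold, 2.13 to 11.6) and Zfp36l1, an RNA-binding decay factor, 13 and 18 UMIs (4.65-fold, 2.15 to 10.3). The general genes Rps25, Ncl and Ubb, for a ribosomal protein, nucleolin and ubiquitin, had ratios of 3.61, 3.17 and 3.07.

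The lower genes named had 1 to 3 UMIs in the double heterozygote. Slc2a1 had 42 and 2 UMIs, or 1159 and 185 CPM, a ratio of 0.160-fold (0.0187 to 0.614). Itgb1, an integrin chain that binds the basement membrane, had 33 and 1 UMIs (0.102-fold, 0.00250 to 0.607), Icam2 22 and 1 UMIs (0.153-fold, 0.00370 to 0.944) and Ltbp4, a matrix protein that binds latent TGF-beta, 23 and 1 UMIs (0.146-fold, 0.00354 to 0.899). Vim, an intermediate filament, had 39 and 3 UMIs (0.258-fold, 0.0510 to 0.812). The other 5, Psma7, Serbp1, Atp5j, Cox6a1 and Prdx1, are general genes of protein turnover, respiration and redox control, with 35 or 36 wild type and 2 or 3 double heterozygote UMIs. Of the barrier transporter list none of 14 genes was over 2-fold higher and 3 were lower, a share near the 19.5% of all genes; without the deepest double heterozygote cell 1 was higher and 2 were lower.

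Plvap-positive cells were 4 of the 12 double heterozygote and 6 of the 39 wild type members, so the double heterozygote set held proportionally more of them. Among Plvap-negative members alone, the log2 ratio of double heterozygote over wild type was 3.12 for Kdr, 2.70 for Nrp1 and -1.60 for Slc2a1, against 2.48, 2.23 and -2.34 in all members, but -0.68 for Cd24a against 2.56. Without the deepest double heterozygote cell the ratio was 2.33 for Kdr, 1.60 for Nrp1, 1.18 for Cd24a and -1.63 for Ltbp4, the last against -2.22; without the deepest wild type cell that of Ltbp4 was -1.42. Without the top cell of each gene it was 1.75 for Kdr and 1.01 for Nrp1. With at least 2 markers as the rule, which adds the 27 mostly deep cells of other classes, it was 0.42 for Kdr and 0.58 for Nrp1. Kdr and Nrp1 thus stayed higher in each of these selections, but under 2-fold with 2 markers and on few UMIs in Plvap-negative members. Cd24a had no double heterozygote UMI in Plvap-negative members.

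**Figure D5:**
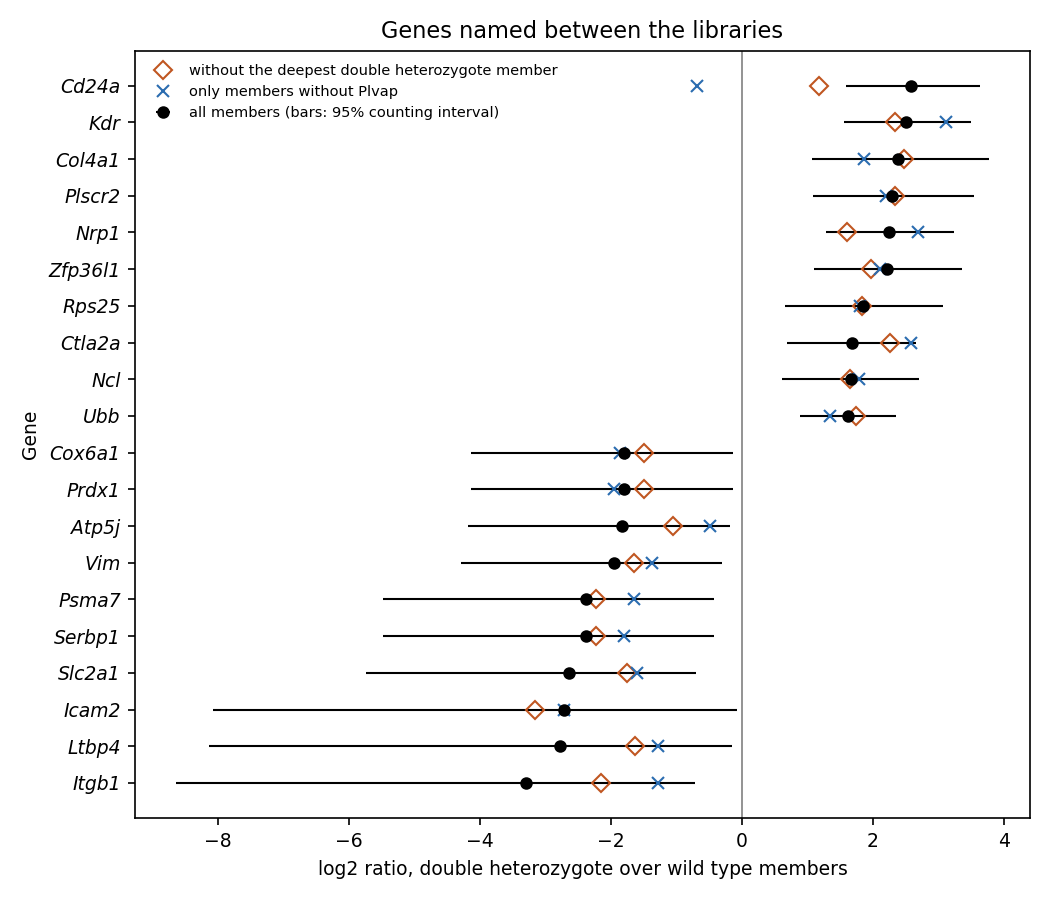
Log2 ratio of double heterozygote over wild type members (x axis) for the 20 genes named between the libraries, with 95% counting intervals over all members. Diamonds leave out the deepest double heterozygote member and crosses use only members without Plvap; circles are raw ratios, and the other symbols have 0.5 UMI added to each sum. Kdr stays right of 0 under each selection. The cross of Cd24a lies at -0.68, a value set by the 0.5 UMI added, since Plvap-negative double heterozygote members had no UMI of it.

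The immediate early list showed how much 1 cell can carry. Of its 15 measured genes 10 were over 2-fold higher in double heterozygote members and none lower, against 14.6% higher of all genes. Without the deepest double heterozygote cell 2 were higher, against 158 of all 995 genes. That cell held 52 of the 64 double heterozygote Fos UMIs and 16 of the 18 of Egr1, a zinc finger immediate early factor. Fos and Egr1 were picked out here after their values were seen. Of basement membrane genes 6 of 11 were higher in the double heterozygote and 5 without that cell, and of the fenestra, caveola and transcytosis list 5 of 10 were higher and 2 without it.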

How the data were processed

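Whole-number UMI counts per gene and barcode were deposited by the authors as 1 table per library. Per the submitters' processing notes, bcl2fastq, Picard, STAR 2.6.0b, Seurat 3 and the mm10 genome were used; no source used here names the gene annotation. A merged table, which holds the natural log of 1 plus scaled counts as deposited by the authors, served only to choose barcodes in an alternative. The members and gene lists were chosen with earlier results of these data known. The filters on genes (300) and mitochondrial UMIs (20%) left out 395 wild type and 316 double heterozygote barcodes. Doublets stayed in, as Scrublet (scanpy 1.11.5) marked 17 of 3889 cells (0.437%), far below the expected rate of 5%, and no member.

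UMIs were summed per library over members and over all other cells and divided by the total to give CPM. Intervals are exact: Poisson for CPM, Clopper-Pearson for shares and conditional binomial for ratios (scipy 1.17.1). Against a library with 0 UMIs, ratios are bounds at 3 UMIs in that library. Cells were called neuron, oligodendrocyte, mural or fibroblast by the class with the most markers. The 25 named genes had the highest ratio over other cells (the lower of the 2 libraries) among genes with at least 20 UMIs, found in at least 10% of members and over 2-fold higher in each library. From each function list up to 6 genes with the most UMIs could be named. Between genotypes, up to 10 higher and 10 lower genes were named by ratio, with at least 20 UMIs in at least 5 members, a fold over 2, an interval without 1 and at most 50% of UMIs in 1 cell; genes with only a Gm number and pseudogenes were not named. Other genes are named as examples. The ratio code was tested on simulated counts. Of 29809 gene names 27805 were matched by symbol to GENCODE vM21 (GRCm38) for positions. Marker number, cell filters, barcode set, doublets, weighting, UMI minimum and fold were varied.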

Additional observations from a re-analysis of the deposited data

Results flagged for a closer look

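Among the genes named in the text, 2 were over 2-fold higher than in other cells in 1 library and over 2-fold lower in the other, with 0.5 UMI added to each sum. Opposite differences that were under 2-fold in 1 library were not counted, as for Fos, with log2 ratios of -0.953 and 2.51. Psma7, a proteasome subunit gene, was 2.05-fold and 0.346-fold the level of other cells in wild type and the double heterozygote, a difference of -2.26 on the log2 scale. Mgp, with 35 and 1 UMIs, was 3.11-fold and 0.127-fold that level, a difference of -4.05, and 27 of its wild type UMIs lay in the deepest wild type member. Neither difference was tested, since each genotype was 1 pool.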

How the results depend on the processing

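Of 98 values of the main results under alternatives, 81 stayed within the counting interval, or within 1.5 times for counts of genes, and 17 moved. The wild type share of members was 1.08% with at least 500 genes per cell, and the double heterozygote share 1.68% with at least 2 markers. Genes higher in members numbered 212 with 2 markers and 93 with at least 30 UMIs per gene; genes lower numbered 38 with 2 markers, 8 with 500 genes per cell, 3 with 30 UMIs, 42 at a fold of 1.5 and 7 at a fold of 3. Genes higher in the double heterozygote numbered 745 with 2 markers, 27 with 30 UMIs, 240 at 1.5-fold and 62 at 3-fold. Genes lower there numbered 771 with 2 markers, 35 with 30 UMIs, 87 at 3-fold and 92 in Plvap-negative members only. The last selection and those without the deepest cells were added after the data were seen. Cells with 2 markers are mostly deep cells of other classes, so that more genes reach 10 UMIs there, and fewer genes are counted at 30 UMIs. The genes that reach the minimum were found anew in each selection of cells. Counts from other cells or another UMI minimum are thus not of the same 995 genes, and they do not measure a change in the share of genes that differ. Of 260 values of genes named between genotypes, 3 reversed in sign: Cd24a at -0.68 in Plvap-negative members only, and Zfp36l1 at -0.46 and Ctla2a at -0.39 with 2 markers. The value of Cd24a is set by the 0.5 UMI added, since no double heterozygote UMI was counted there. For Zfp36l1 and Ctla2a the cause was not tested. Of 385 values of genes against other cells and 132 of the Plvap split none reversed, and 52 and 6 moved. No paired analysis was possible because each genotype was 1 library with no replicate number. Depth limits the double heterozygote side most, where 3 UMIs in the members are 278 CPM.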
